A study of Bos taurus with 10 samples.

Results

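Krüppel-like factors (KLFs) are transcription factors with a run of C2H2 zinc fingers at their C terminus, which bind GC-rich and CACCC sequences in promoters and enhancers. Members share this DNA-binding end and differ in the rest of the protein, through which some recruit coactivators and others the corepressors CtBP or SIN3A. In mouse embryos and embryonic stem cells, KLF2, KLF4 and KLF5 belong to the network that holds naive pluripotency, KLF4 acts below LIF and STAT3, and KLF5 is also needed for the trophectoderm (TE). KLF17 is known as a marker of the epiblast and of naive stem cells in human.

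The 10 KLF genes described here were chosen by name, as *KLF2*, *KLF3*, *KLF4*, *KLF5*, *KLF6*, *KLF9*, *KLF10*, *KLF11*, *KLF13* and *KLF17*, and all 10 were found among the 20112 genes of the table. RNA-seq was done on 10 single bovine early blastocysts produced by fertilization in vitro, 5 in each group. WT embryos (nc1 to nc5) were injected as zygotes with mRNA of BE3, a cytosine base editor, without guide RNA. *SOX2* KO embryos (ko1 to ko5) received the same mRNA with a mixture of sgRNAs that write premature stop codons into *SOX2*, a pluripotency factor of the inner cell mass (ICM). The labels give the age as day 7.0 after fertilization, whereas the study's methods give a slightly later day. Each library holds a whole embryo, TE and ICM together, and edited embryos can be mosaic. As the study describes, part of the cDNA of every blastocyst served to check its genotype. Fewer cells of a type and less RNA per cell therefore cannot be told apart in any of the values below. The comparison asks how the loss of SOX2 changes the transcriptome of the blastocyst.

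Values are normalized read counts, that is reads per gene divided by the size factor of the embryo. They are not divided by gene length, so each gene is compared only with itself across embryos. Between 2223670 and 5134855 reads fell on genes in WT embryos and between 2578284 and 4337342 in *SOX2* KO embryos. The 18S ribosomal RNA gene *RN18S1* took 26.4% to 37.0% of them in WT and 32.5% to 45.0% in *SOX2* KO. The targeted gene, *SOX2*, was at 56.5, 93.4, 83.5, 73.0 and 84.4 normalized reads in WT and at 39.0, 26.4, 64.0, 82.1 and 71.5 in *SOX2* KO embryos. The groups overlapped (log2 fold change -0.55, limma adjusted p = 0.167), and read counts do not show the edited bases. The embryo ko4 had the highest *SOX2* count of its group.

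Of the 10 KLF genes, *KLF17* fell in *SOX2* KO embryos, and none of the other 9 passed the test in either direction. The test was limma on log2(normalized read count + 1) over 20056 genes, and a call needed both an adjusted p (Benjamini-Hochberg) no greater than 0.05 and a change of 2-fold or more. Among all tested genes, 1.16% were called lower and 8.93% higher, against 1 and 0 of the 10 KLF genes. At an unadjusted p under 0.05, limma had 2 KLF genes higher (*KLF2* and *KLF6*) and 2 lower (*KLF5* and *KLF17*), where 24.0% of all genes were higher and 8.37% lower. DESeq2 on the recovered reads also called 0 higher and 1 lower, and so did edgeR. The median log2 fold change of the 10 genes was -0.13, and that of all tested genes was 0.25. No KLF gene separated the groups without overlap, where 6.41% of all genes did so upward and 2.76% downward.

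**Figure D1:**
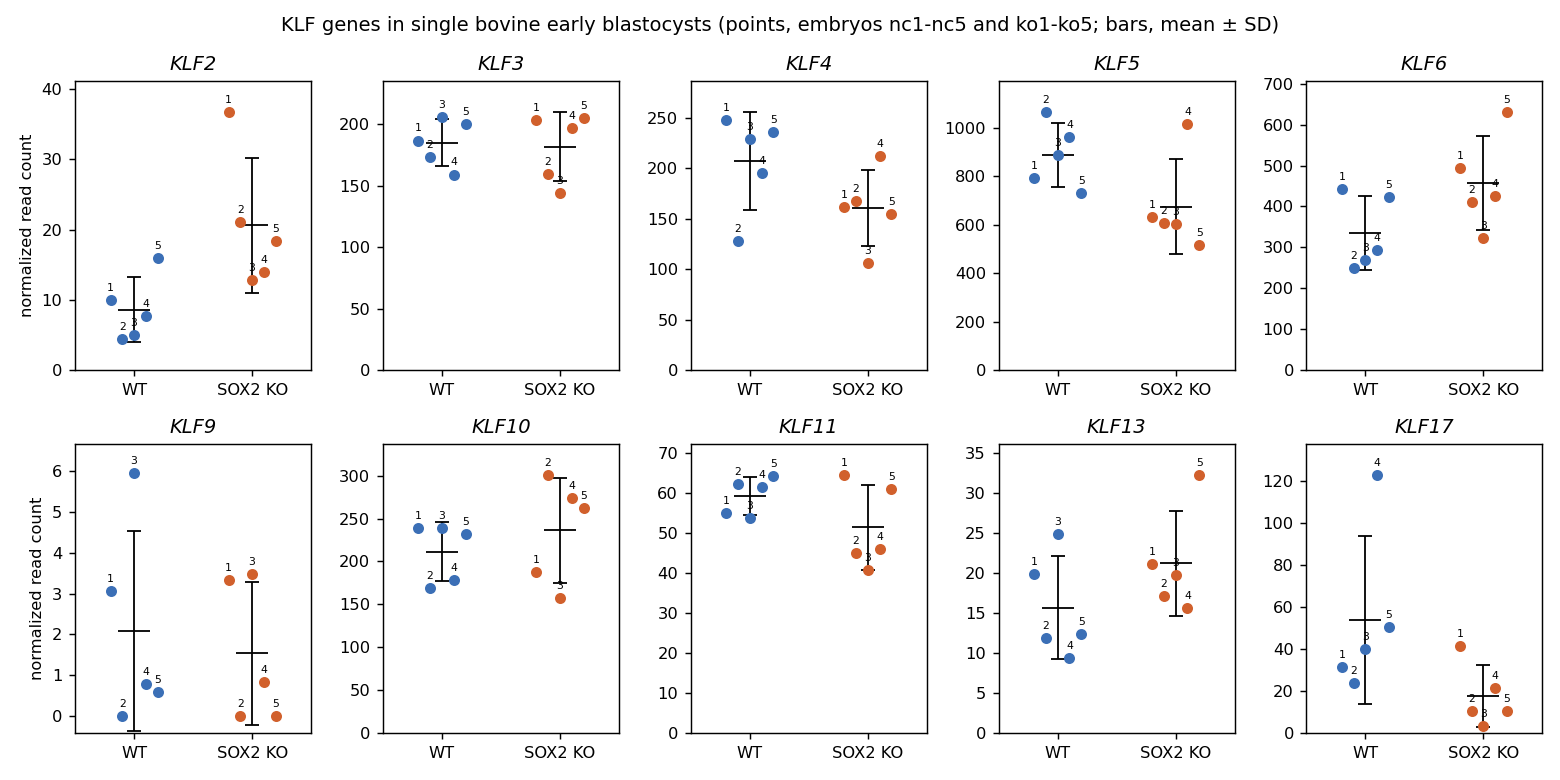
Normalized read counts of the 10 KLF genes in the 5 WT and 5 *SOX2* KO embryos, with the mean and SD of each group; digits give the embryo within nc1 to nc5 and ko1 to ko5, and each panel has its own axis. The groups overlap in all 10 panels, *KLF17* is low in 4 of the 5 *SOX2* KO embryos, and the embryo ko4 stands above the rest of its group for *KLF5*.

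For *KLF17*, the WT embryos nc1 to nc5 had 31.3, 23.7, 39.8, 123 and 50.2 normalized reads. The *SOX2* KO embryos ko1 to ko5 had 41.2, 10.6, 3.49, 21.4 and 10.4. Of the *SOX2* KO embryos, 4 lay below every WT embryo, while ko1 lay within the WT range. The mean was 53.5 ± 39.9 (SD, n = 5) in WT against 17.4 ± 14.8 (SD, n = 5) in *SOX2* KO, values that rest on 340 and 83 reads. This is a log2 fold change of -1.71 with a standard error of 0.50 (limma adjusted p = 0.0288). Its 95% interval, from -2.74 to -0.67, spans 0.150 to 0.627 of the WT level. DESeq2 gave -1.62 (adjusted p = 0.0211) and edgeR -1.70 (adjusted p = 0.0235).

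*KLF17* varied among embryos of a group more than most genes of similar level. Its SD of log2 values within groups was 1.06, against a median of 0.45 over the 4107 genes with a mean within a factor of 2 of its own, and 95.9% of those genes varied less. The highest WT embryo had 5.17 times the count of the lowest, and the highest *SOX2* KO embryo had 11.8 times that of the lowest, where ko3 had only 3 reads. The call depended on single embryos. It held in 6 of 10 fits with 1 embryo removed, and the adjusted p was 0.0922 without nc4, 0.0547 without nc5, 0.0748 without ko3 and 0.0722 without ko5. The direction held in all 10 of these fits, with a log2 fold change between -2.10 and -1.29. When limma also took in the *RN18S1* share of each embryo, the log2 fold change of *KLF17* was -1.39 and its adjusted p 0.330.

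*KLF5*, which acts in both the TE and the ICM of the mouse, had counts of 794, 1066, 887, 963 and 734 in WT and of 634, 607, 604, 1017 and 519 in *SOX2* KO embryos. In ko1, ko2, ko3 and ko5 the count was below that of every WT embryo, and in ko4 it was above that of 4 of the 5 WT embryos. On average WT embryos had 889 ± 132 (SD, n = 5) and *SOX2* KO embryos 676 ± 195 (SD, n = 5). *KLF5* thus had a log2 fold change of -0.42 with a standard error of 0.18 (limma adjusted p = 0.104) and a 95% interval from -0.79 to -0.06. Without ko4 it was -0.58 and the adjusted p was 0.0113, still short of the 2-fold threshold. Without any other single embryo the adjusted p of *KLF5* was above 0.05, up to 0.255. The *KLF5* counts rest on 5134 reads over all WT embryos, against 3236 over all *SOX2* KO embryos. How much counting error adds to the spread of *KLF5* between embryos was not tested.

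*KLF4*, one of the factors used to reprogramme somatic cells to pluripotency, had counts of 248, 128, 229, 195 and 236 in WT embryos. In the *SOX2* KO embryos the counts were 161, 168, 106, 212 and 155. The groups overlapped, with the WT embryo nc2 below 4 of the 5 *SOX2* KO embryos. *KLF4* had a log2 fold change of -0.36 with a standard error of 0.21 (limma adjusted p = 0.226). The 95% interval for *KLF4* runs from 0.578 to 1.05 of the WT level, which leaves a 2-fold decrease outside it. Leaving out single embryos moved the log2 fold change of *KLF4* between -0.53 and -0.22, with adjusted p from 0.0889 to 0.487.

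*KLF2*, which in endothelium is induced by the kinase ERK5 through MEF2 factors, had counts of 9.92, 4.45, 4.97, 7.77 and 15.9 in WT and of 36.7, 21.1, 12.8, 14.0 and 18.4 in *SOX2* KO embryos. Only the WT embryo nc5 reached into the *SOX2* KO range, above ko3 and ko4. Average counts were 8.61 ± 4.65 (SD, n = 5) in WT against 20.6 ± 9.62 (SD, n = 5) in *SOX2* KO, from 58 and 93 reads in all. *KLF2* had a log2 fold change of 1.198 with a standard error of 0.43, and the adjusted p was 0.0658 with limma, 0.0640 with DESeq2 and 0.0984 with edgeR. It was called higher in 2 of 10 fits with 1 embryo removed, without ko4 (adjusted p = 0.0443) and without nc5 (adjusted p = 0.0492). Genes of like level spread by a median SD of 0.69 on the log2 scale within groups, and *KLF2* by 0.62.

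**Figure D2:**
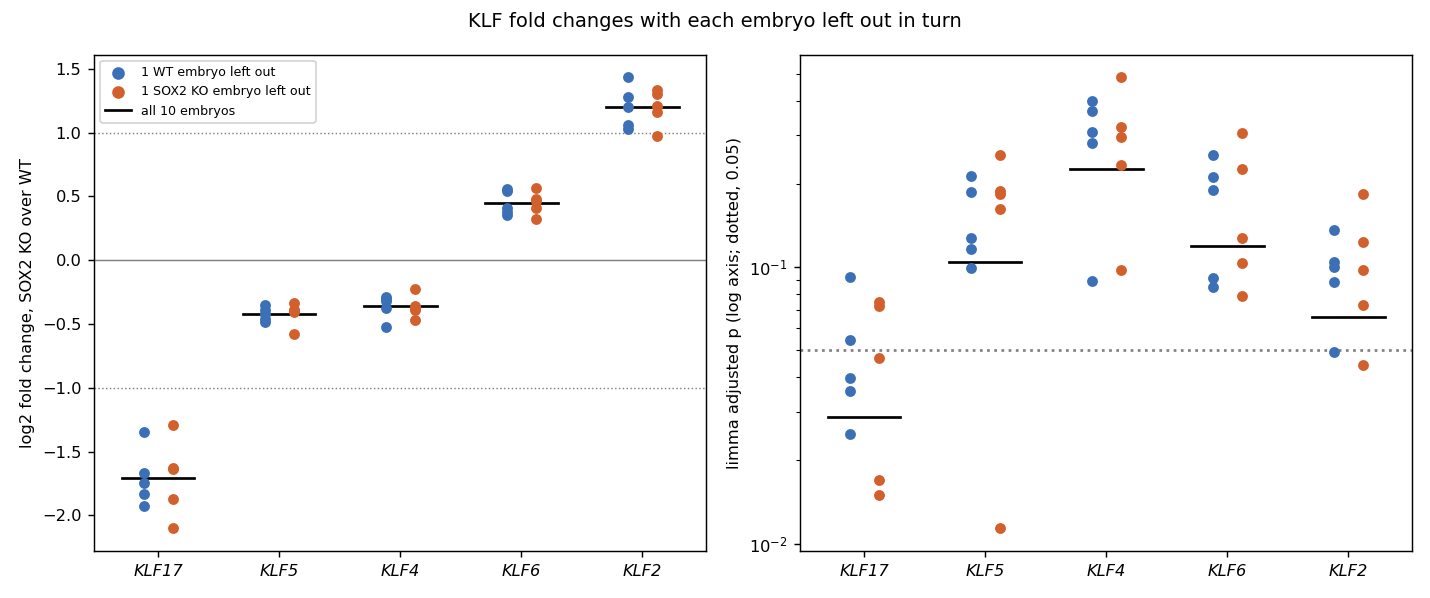
Log2 fold change (left) and limma adjusted p (right, log axis) of 5 KLF genes in all 10 embryos (black lines) and in fits that lack 1 embryo (points, blue for a WT and orange for a *SOX2* KO embryo). The fold changes keep their direction throughout; *KLF17* crosses the 0.05 line upward in 4 fits, *KLF2* downward in 2 and *KLF5* downward in 1, at 0.0113 without ko4.

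The KLFs with other roles were spread around no change. *KLF6*, an activator first described in placenta and liver, had counts of 442, 251, 268, 294 and 424 in WT and of 494, 412, 322, 425 and 631 in *SOX2* KO embryos. The lowest 3 WT embryos were below all *SOX2* KO embryos, and nc1 and nc5 were within their range. *KLF6* had a log2 fold change of 0.45 with a standard error of 0.20 (limma adjusted p = 0.120) and a 95% interval from 1.03 to 1.81 times the WT level. The adjusted p of *KLF6* stayed between 0.0787 and 0.307 with single embryos left out.

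*KLF3*, a repressor that recruits CtBP, lay between 159 and 206 in WT and between 144 and 205 in *SOX2* KO embryos. At a log2 fold change of -0.03 with a standard error of 0.16 (limma adjusted p = 0.910), the 95% interval runs from 0.774 to 1.24 times the WT level. *KLF3* was also steady within groups, with an SD of 0.20 on the log2 scale that only 14.0% of genes of like level undercut. A 2-fold change of *KLF3* in either direction is therefore outside the interval.

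*KLF9*, *KLF10*, *KLF11* and *KLF13* belong to the branch of the family that binds the corepressor SIN3A, together with *KLF14* and *KLF16*. *KLF10*, an early target of TGF-beta, lay between 169 and 239 in WT and between 157 and 301 in *SOX2* KO embryos, with a 95% interval of the fold from 0.833 to 1.44 (limma adjusted p = 0.660). *KLF11*, likewise induced by TGF-beta, lay between 53.7 and 64.3 in WT and between 40.7 and 64.6 in *SOX2* KO, with an interval from 0.630 to 1.17 (limma adjusted p = 0.489). The WT embryos were close together for *KLF11* (SD 0.11 on the log2 scale), and the *SOX2* KO embryos fell into ko1 and ko5, at 64.6 and 61.1, and the other 3, at 40.7 to 46.0. No test was made between these embryos.

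*KLF13*, known from its part in cytokine expression of T cells, lay between 9.32 and 24.9 in WT and between 15.6 and 32.3 in *SOX2* KO embryos (log2 fold change 0.45, limma adjusted p = 0.394). It rests on 92 and 96 reads, and its interval of the fold, 0.814 to 2.31, includes both no change and a doubling. *KLF9*, a target of glucocorticoid and thyroid hormone receptors, had at most 6 reads in any embryo and none in nc2, ko2 and ko5. In 8 of the 10 embryos *KLF9* was at or below the 3 reads taken as the floor of detection, so no difference was detectable at this depth.

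**Figure D3:**
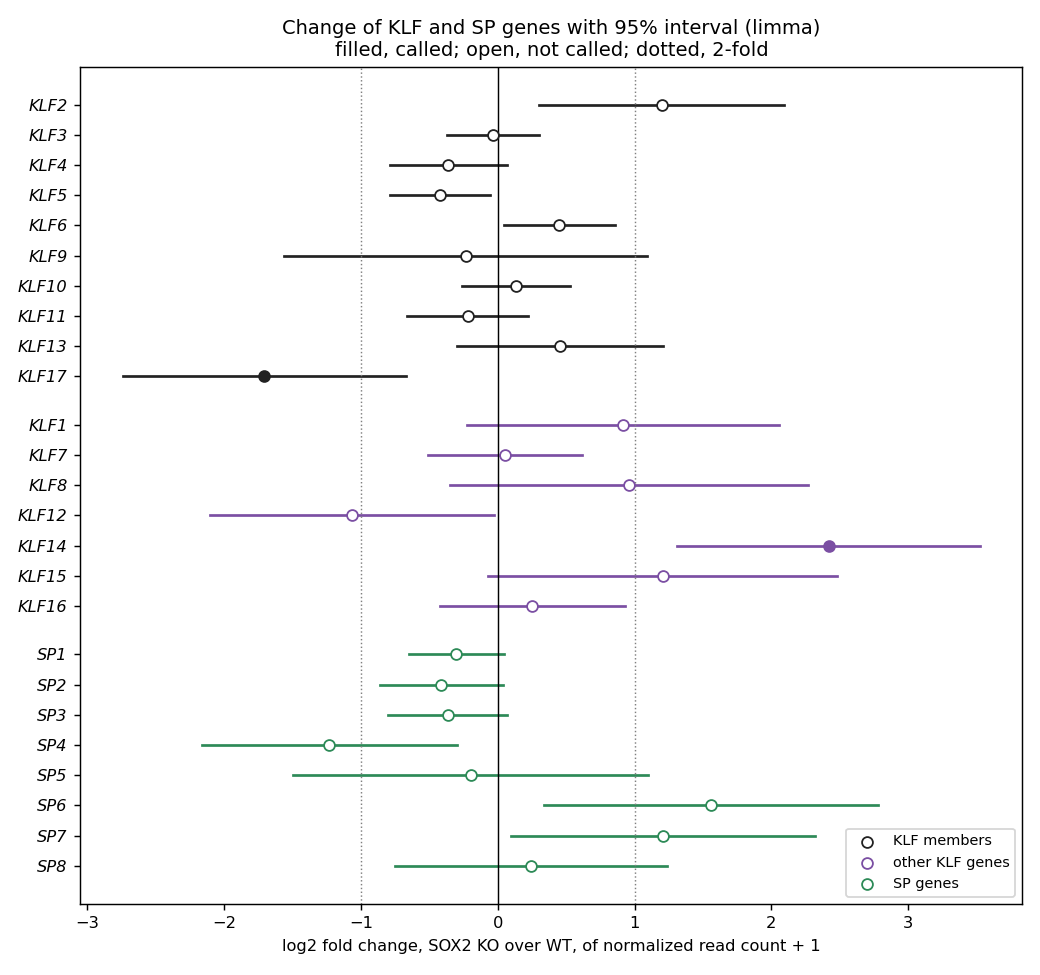
Log2 fold changes between *SOX2* KO and WT embryos with 95% limma intervals for the 10 KLF genes (black), 7 further KLF genes (purple) and 8 SP genes (green); filled points were called, and dotted lines mark 2-fold. *KLF17*, at -1.71, is the filled point on the left, and *KLF14*, at 2.42, the one on the right, where the fitted value depends on the pseudocount.

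Beyond these 10 genes, 7 other KLF genes and 8 genes of the related SP family were tested. Of the 7, limma called 1 higher and 0 lower, as did DESeq2 and edgeR. Over all tested genes, limma called 8.93% higher and 1.16% lower. Of the SP genes, limma and edgeR called 0 in either direction. DESeq2 called 1 lower (*SP4*, DESeq2 adjusted p = 0.0499, named after its values were seen). At an unadjusted p under 0.05 limma had 2 SP genes higher and 1 lower, where 24.0% of all genes were higher and 8.37% lower. The median log2 fold change was 0.91 over the other KLF genes and -0.25 over the SP genes. It was 0.25 over all tested genes and -0.04 over the 11334 with a mean of at least 10. The 0.91 is the value of *KLF1*, from 7 reads in WT and 9 in *SOX2* KO. *KLF7* and *KLF16*, with the most reads of that list, were at 0.05 and 0.25 (named, like *KLF1*, after their values were seen). The KLF gene called was *KLF14*, an imprinted gene known from adipose tissue. It had no read in any WT embryo, and 9, 3, 2, 2 and 7 reads in ko1 to ko5, that is normalized read counts of 10.02, 3.96, 2.33, 1.64 and 8.07. With 3 reads per WT embryo taken as the floor, *KLF14* was on average at least 1.88-fold higher in the *SOX2* KO group (limma adjusted p = 0.00714, DESeq2 0.00294, edgeR 0.0108). Counts of 2 or 3 reads in 3 of the 5 embryos are at that floor.

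The relation between the pluripotency KLFs was also followed within each embryo, where the scaling between embryos cancels apart from the pseudocount and gene length drops out of the difference between groups. The log2 ratio of *KLF4* to *KLF17* was 2.95, 2.38, 2.49, 0.66 and 2.21 in WT and 1.94, 3.87, 4.57, 3.25 and 3.77 in *SOX2* KO embryos. In 4 *SOX2* KO embryos the ratio was above every WT embryo, and in ko1 it was below 4 of them. The group means differed by 1.34 (two-sided exact permutation test, p = 0.0556, 0.119 after Benjamini-Hochberg adjustment over 3 ratios). For *KLF5* to *KLF17* the difference was 1.28 (exact permutation p = 0.0794, adjusted 0.119), with 4 *SOX2* KO embryos again above every WT embryo. For *KLF4* to *KLF5* it was 0.06 (exact permutation p = 0.881, adjusted 0.881). None of the 3 ratios passed the test, for which 5 embryos against 5 allow an exact permutation p as small as 0.00794. The embryo ko1 is the one of its group whose ratios to *KLF17* lay among those of WT. Without ko1, the differences were 1.73 and 1.69, and the exact permutation p was 0.0159 for both. That is the smallest exact permutation p that 4 embryos against 5 allow, reached because the embryo that overlapped was removed. With any other embryo removed, the exact permutation p was 0.0635 to 0.111 for *KLF4* to *KLF17*. For *KLF5* to *KLF17* it was 0.0476 without nc2 and 0.0952 to 0.159 without each of the rest. *KLF17* was known to be called from earlier results on these embryos, so its ratios give no independent support.

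**Figure D4:**
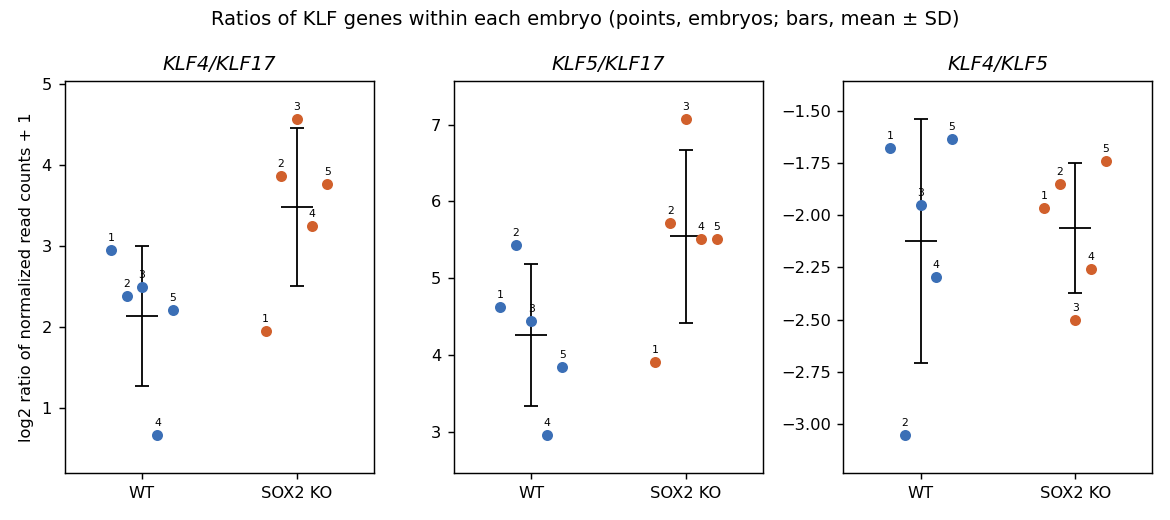
Log2 ratios of *KLF4* to *KLF17*, *KLF5* to *KLF17* and *KLF4* to *KLF5* within each embryo (points, digits as for the counts by embryo), with the mean and SD of each group. The embryo ko1 sits with the WT embryos for both ratios to *KLF17*, at 1.94 and 3.91, and the groups overlap for *KLF4* to *KLF5*, with nc2 lowest at -3.05.

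Variation among embryos of a group was compared between the KLF genes. Group means were subtracted from the log2 values, and the deviations of each pair of genes were correlated over the 10 embryos as a description. Of the 45 pairs, 32 had a positive and 13 a negative Pearson correlation, with a median of 0.18. The highest were *KLF4* with *KLF10* at 0.78 and *KLF2* with *KLF6* at 0.70. *KLF5* had a negative value in 7 of its 9 pairs, lowest at -0.50, -0.50 and -0.49 with *KLF13*, *KLF6* and *KLF2*. With *KLF11*, *KLF9*, *KLF10* and *KLF3* it was -0.24, -0.07, -0.06 and -0.03. With *KLF4* and *KLF17* it was 0.05 and 0.25. Pairs of other genes were not examined. All genes of an embryo share its library, depth and size factor, and the share of each in these values was not tested.

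**Figure D5:**
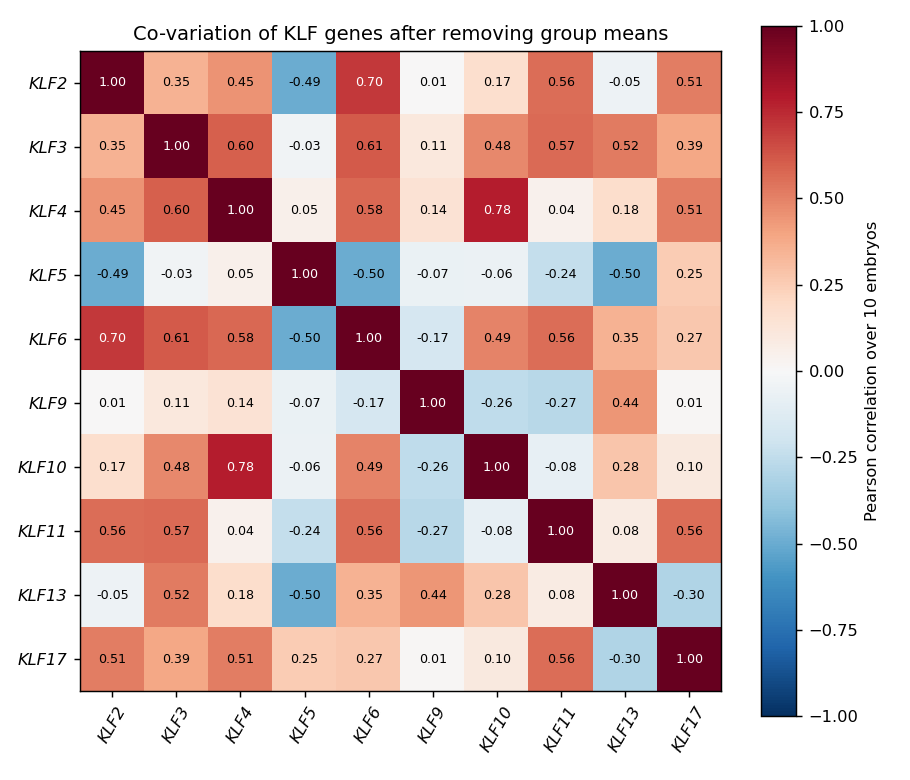
Pearson correlation, over 10 embryos, of the deviations of log2(normalized read count + 1) from the group mean for each pair of KLF genes (red positive, blue negative). The highest value off the diagonal is 0.78 for *KLF4* and *KLF10*. The lowest, from -0.50 to -0.49, are those of *KLF5* with *KLF13*, *KLF6* and *KLF2*.

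Genes that act with the KLFs were counted in lists chosen by function. Among 9 genes of the LIF and STAT3 input to *KLF4*, *STAT3* was called lower and *LIF* higher. Of all tested genes, 1.16% were called lower and 8.93% higher. *STAT3* lay between 205 and 245 in WT and between 51.5 and 92.0 in *SOX2* KO embryos, and the receptor subunit *IL6ST* between 197 and 347 and between 109 and 150. Neither overlapped between the groups (log2 fold changes -1.54 and -0.93, limma adjusted p = 3.13e-05 and 0.00227), and *IL6ST* did not reach the 2-fold threshold. Of all tested genes, 2.76% were lower in *SOX2* KO without overlap. *LIF*, the ligand, had at most 1 read in any WT embryo and 8 in any *SOX2* KO embryo, and was at least 1.48-fold higher against the floor of 3 reads (limma adjusted p = 0.0447, edgeR 0.0535). The call of *LIF* held in 4 of 10 fits with 1 embryo removed, where it reached an adjusted p of up to 0.106. *KLF4* itself, given above, did not pass the test in the same embryos.

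Of 7 genes of the ERK5 and MEF2 input to *KLF2*, limma, DESeq2 and edgeR called 0, and 0 had an unadjusted limma p under 0.05. At that unadjusted p, 24.0% of all tested genes were higher and 8.37% lower, while limma called 8.93% higher and 1.16% lower. All 3 tools also called 0 of 7 genes of the glucocorticoid response, to which *KLF9* belongs, with 2 higher and 1 lower at an unadjusted limma p under 0.05. Of 11 TGF-beta genes, *SMAD7*, the inhibitory SMAD, passed with a log2 fold change of 0.65 (limma adjusted p = 0.0360, edgeR 0.0527), short of the 2-fold threshold. No TGF-beta gene was called by any of the 3 tools, and 2 were higher and 3 lower at an unadjusted limma p under 0.05. Of 12 cofactors, 3 passed, all lower, where 3.2% of all genes passed lower at this adjusted p and 10.4% higher. The acetyltransferase gene *KAT2B* was at 160 ± 16.2 (SD, n = 5) in WT but at 69.6 ± 15.2 (SD, n = 5) in *SOX2* KO, and its log2 fold change was -1.22 (limma adjusted p = 0.000624). *HDAC2*, a deacetylase of the SIN3A complex, had a log2 fold change of -0.94 (limma adjusted p = 0.00523). *WWP1*, a ubiquitin ligase of KLF2 and KLF5, had -0.58 (limma adjusted p = 0.0440), with overlapping groups.

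Lineage markers were counted in the same embryos. Of 14 tested genes of the naive pluripotency network other than KLFs and *SOX2*, limma called 4 lower and 0 higher. Among all tested genes, 1.16% were called lower and 8.93% higher. Of the 14, 13 had a negative log2 fold change, with a median of -0.75. Summed over the list, normalized read counts ran from 5120 to 5813 in WT but from 3375 to 4343 in *SOX2* KO. *DPPA3*, *NANOG*, *PRDM14* and *POU5F1*, which were lowest in adjusted p, had log2 fold changes of -1.64, -3.70, -1.53 and -0.75. *POU5F1* did not reach the 2-fold threshold, and the remaining gene called was *ZFP42*, at -1.04 (limma adjusted p = 0.0147), which was named after its values were seen. Of 14 TE markers, 1 was called higher (*ELF3*, log2 fold change 1.54, limma adjusted p = 0.00379), where 8.93% of all genes were. All 14 had a positive log2 fold change, with a median of 0.55. Of all 20056 tested genes, 12612 had a positive one, and the median was 0.25. TE markers summed to between 26616 and 39172 in WT and to between 36872 and 49485 in *SOX2* KO, ranges that overlap. Among the 10 hypoblast markers tested, limma calls included *HNF4A* and *PDGFRA* lower (log2 fold changes -2.85 and -2.01) and *APOA1* higher (1.71). Over all genes, limma called 1.16% lower and 8.93% higher. *SOX17*, another marker of this list, had no values. The sum of hypoblast markers ran from 1700 to 2124 and from 1936 to 2146, which overlap too. Of 9 markers of cumulus cells, which surround the oocyte, limma, DESeq2 and edgeR called 0. At an unadjusted limma p under 0.05, 2 of them were higher, where 24.0% of all genes were. All 9 had a positive log2 fold change, with a median of 0.39. The 9 markers summed to between 35.6 and 88.5 in WT and to between 64.0 and 118 in *SOX2* KO. Every gene with values had at least 11 reads in all, so none of the 9 could be at 0 in every embryo. *PTX3* and *GREM1*, of the same list, had no values. The part of these shifts in the values of *KLF17* and of the other KLF genes was not tested.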

How the data were processed

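Smart-seq2 reads were trimmed (Trimmomatic), aligned to the bovine build ARS-UCD1.2 (HISAT2) and assigned to genes (featureCounts). The authors deposited a normalized signal, in which each count was divided by its embryo's DESeq2 size factor. The annotation release and strand setting are not given in the sources used here, so reads of similar or overlapping genes could be shared. All 201120 values (100%) were multiples of the embryo's smallest step, within 1e-06 of a read, and reads were recovered from these steps.

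limma (version 3.58.1, eBayes with a trend) was fitted to log2(normalized read count + 1) of 20056 genes (mean no less than 1), 5 WT against 5 *SOX2* KO embryos, without covariates. Fold changes of genes with few reads are understated on this scale. DESeq2 (version 1.42.0) called 1893 genes higher and 243 lower, and edgeR (version 4.0.16, quasi-likelihood) 1686 and 299, both on recovered reads in R 4.3.3. Ratios were tested by exact permutation with scipy 1.17.1. The tests were checked on simulated counts. Reads carry no molecular identifiers, so floors cover counting error only, and nothing states that the embryos of a group came from separate fertilizations.

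The KLF genes and the gene lists were chosen with earlier results of these data known. All 10 KLF genes are named, and of the other lists up to 4 genes each with an adjusted p of at most 0.05, in order of p, except 1 gene that is not reported here. For *KLF2*, *KLF4*, *KLF5* and *KLF17*, the 3 genes most correlated within groups are also named. Alternatives were pseudocounts of 0.1 and 5, other scalings and filters, both count tests, the *RN18S1* covariate and leaving out each embryo. Equal totals without *RN18S1*, and calls without the fold threshold, were added after the values were seen. *SOX2* KO columns are named ko1 to ko5, while their labels carry the numbers 1, 2, 3, 5 and 6, so they were used without a replicate number. Sequences, gene length and coordinates were not analysed here.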

Additional observations from a re-analysis of the deposited data

Results flagged for a closer look

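Among 26 groups of 5 embryos, from the 10 KLF genes and 3 ratios, 2 held 1 embryo far from the other 4, where chance gives about 1.3. *KLF17* had a normalized read count of 123, from 158 reads, in nc4, while the rest of the WT group lay between 23.7 and 50.2. *KLF5* had 1017, from 1238 reads, in ko4, while the rest of the *SOX2* KO group lay between 519 and 634. The reads in both embryos are far above the floor of 3. Without ko4, *KLF5* passed the adjusted p of 0.05, and without nc4, *KLF17* no longer did, at the values given above.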

How the results depend on the processing

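*KLF17* kept its direction in every alternative run, and its call in all but the *RN18S1* covariate, the filter at a mean of 10 (limma adjusted p = 0.05004, just above the threshold) and 4 fits lacking 1 embryo. KLF genes called lower were thus 0 with that covariate and 0 with that filter, and 0 to 1 with 1 embryo left out, as were those called higher. *KLF13* turned to -0.076 with the covariate, and *KLF3* to 0.070 with the median log ratio and 0.046 with quantile normalization. With 1 embryo left out, *KLF3* ran from -0.085 to 0.047 and *KLF9* from -0.55 to 0.15. The ratio differences then ran from 0.97 to 1.73 (*KLF4* to *KLF17*), 0.90 to 1.69 (*KLF5* to *KLF17*) and -0.17 to 0.18 (*KLF4* to *KLF5*).

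Over all genes, 1792 were called higher and 232 lower (88.5% higher). The numbers were 137 and 83 with the covariate (62.3%), 629 and 447 with quantile normalization (58.5%), 502 and 190 with a mean of at least 10 (72.5%), and 1002 higher with a pseudocount of 5. Without the fold threshold 641 were lower. With 1 embryo left out, 771 to 3057 were higher and 176 to 267 lower. Fewer genes were tested with the filter, and otherwise the cause was not tested. Equal totals moved the median log2 fold change of all genes by -0.11 and quantile normalization by -0.27. With a mean of at least 10, the median over the 11334 genes tested was -0.04. No paired analysis was possible because *SOX2* KO columns and labels number the embryos differently.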

Other observations

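The genes closest to a KLF gene in their deviations from the group mean, out of 6982 whose mean reached 50, are given as a description over 10 embryos, and the highest of so many values is large by selection alone. For *KLF2* they were *COP1*, *TMTC3* and *HSD17B7* (Pearson correlation 0.97, 0.91 and 0.89), and for *KLF4* they were *ULK2*, *BRD1* and *SIRT1* (0.91, 0.90 and 0.89). For *KLF5* they were *NCBP2*, *PSMD9* and *GEMIN5* (0.95, 0.95 and 0.94). For *KLF17* they were *SLC39A9*, *ERICH1* and *PIP4P1* (0.88 each), whose log2 fold changes between the groups were 0.28, -0.07 and 0.06 beside -1.71 for *KLF17*.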
